A study of Glycine max with 9 samples.

Results

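The comparison described here was of root tips harvested 40 min after sucrose was added with root tips harvested 20 min after, and it asked what was added or reversed in the second 20 min. It took 6 of the 9 libraries of the study, the 3 labelled 40 min (t40) and the 3 labelled 20 min (t20), chosen by the time in their labels and by no measured value. The plants were soybean (Glycine max, cultivar Williams 82), germinated seedlings of which had been kept for 4 weeks in diluted Hoagland solution. Sucrose was pipetted into that solution to a final 10 mM, and sections of about 2 cm that carried the root tip were taken from 3 plants at each time. The 3 remaining libraries, taken at 0 min (t0), are shown beside the others and share the estimate of spread. All 9 plants had the same genotype and solution, and the t0 plants alone had received no sucrose. No library came from plants that stood for 20 or 40 min without sucrose, so time in sucrose and time since the solution was disturbed cannot be told apart.

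Sucrose moves through the phloem from leaves to roots and acts there both as carbon and as a signal. Shoots send more of it to roots that lack phosphate or iron. Legume roots also make isoflavonoids from phenylalanine. Phenylalanine ammonia-lyase (PAL), cinnamate 4-hydroxylase (C4H) and 4-coumarate:CoA ligase (4CL) supply the chalcone synthases (CHS), chalcone reductase turns the chain toward daidzein, and isoflavone synthase (IFS) forms the isoflavone skeleton. In soybean the later enzymes lead to the glyceollins, pterocarpan defense compounds that attacked roots accumulate.

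Values are FPKM, fragments normalized to transcript length and library total, summed over the transcripts of a gene identifier. FPKM is scaled by length, so levels may be compared between genes. The test was limma on log2(FPKM + 1) over the 32763 genes that reached an FPKM of 1 in 3 or more of the 9 libraries. Because 1 is added, differences of low genes come out too small. A gene rose or fell where the p adjusted by the Benjamini-Hochberg (BH) method was under 0.05 and the absolute log2 fold change was at least 1. A looser criterion, called the unadjusted rule below, asks for an unadjusted p under 0.05 with the same fold change. Libraries are called by the numbers of their columns in the deposited table, 4 to 6 at t20 and 7 to 9 at t40, and no library was paired with another.

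The t20 libraries were less alike than the t40 libraries. The Pearson correlation across tested genes was 0.907 to 0.952 within t20 and 0.966 to 0.974 within t40. Annotated ribosomal RNA loci held 0.739% to 1.63% of summed FPKM at t20 and 0.341% to 0.861% at t40. At t20 30579 to 30865 genes reached an FPKM of 1, against 31962 to 32836 at t40. Library 3 at t0 had the largest ribosomal RNA share of all 9 libraries, 4.36%, and the fewest genes at an FPKM of 1, 28893. Libraries 1 and 2 had 0.782% and 1.3%, with 30613 and 30452 genes. By the numbers the study gives, each t40 library had a smaller aligned part of its reads than any t20 library. Read numbers tended to be lower at t40 but overlapped between both times. The part of depth in the results was not tested. Leghemoglobin, the oxygen carrier of nodules, did not exceed an FPKM of 0.149 in any library for any of 4 genes. Nodulins, other genes named after nodules, were expressed. The 3 that were tested, NOD33 the most abundant, had a summed FPKM between 105 (library 2) and 442 (library 4). The low level thus holds for leghemoglobin and not for all nodule genes. Leaf genes were present: 11 nuclear genes for photosynthesis and chlorophyll had a summed FPKM of 241 to 942 at t20 and 143 to 177 at t40, and are described with the falls.

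Far more genes were higher at t40 than lower. At an adjusted p, 425 genes rose and 19 fell, 1.36% of the genes tested in both directions together, 1.3% for rises and 0.058% for falls. The unadjusted rule held for 1697 genes (5.18%), with 1478 (4.51%) higher and 219 (0.668%) lower. Over all genes the median was 0.02 on the log2 scale. All 3 t40 libraries lay above all 3 t20 libraries for 5222 genes (15.9%) and below them for 3214 (9.81%). The 425 rises had a median log2 fold change of 1.56, with 105 genes at 2 or more and 12 at 3 or more. Their median FPKM was 2.47, 0.982 and 2.06 in libraries 4, 5 and 6, against 7.22, 8.43 and 9.97 in libraries 7, 8 and 9. Library 5 was the lowest t20 library for 318 of them and library 9 the highest t40 library for 269. At t0 the median of their mean FPKM was 0.912, against 1.93 at t20 and 9.05 at t40.

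The adjusted counts rested on single libraries. Without library 5 there were 189 rises and 29 falls, of which 167 and 5 were among the genes above. Without library 4 the counts were 1019 and 288, and without library 6 they were 100 and 3. Without library 7 they were 205 and 6, without library 8 they were 1 and 1, and without library 9 no gene passed. By the unadjusted rule 1352 genes were still higher without library 9, 1168 of them among the 1478, and 1337 without library 8, 1193 of them shared. Leaving out t0 libraries 1, 2 and 3, which enter through the estimate of spread, gave 218, 213 and 510 rises. The fall counts were then 6, 4 and 27.

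**Figure D1:**
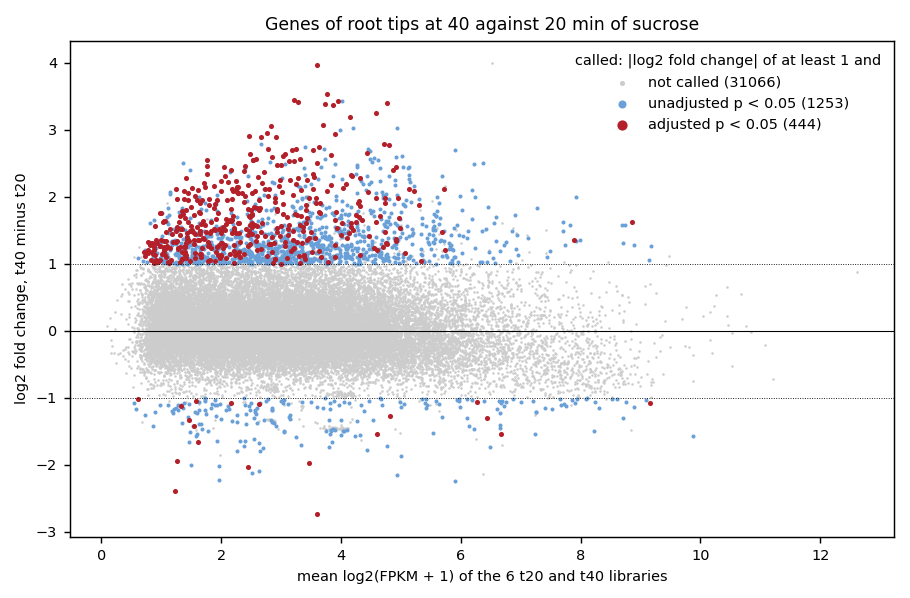
Each point is 1 of the 32763 genes tested, with its mean log2(FPKM + 1) over the 6 libraries on the horizontal axis and its log2 fold change, t40 minus t20, on the vertical axis. The 444 genes past the adjusted p are red and the others of the 1697 past the unadjusted rule are blue, and the points beyond the upper dotted line outnumber those beyond the lower one.

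LOC100527044 rose most of the genes whose mean FPKM reached 5 (chromosome 4, 4270985 to 4271728, build Glycine_max_v4.0). It is a protein-coding gene to which the files give no function. Its FPKM was 5.9, 1.16 and 0.919 in the t20 libraries and 69.5, 40.0 and 37.6 at t40. The t40 libraries did not overlap with those at t20, nor with those at t0, where it was 1.86, 10.8 and 0.468. The difference on the log2 scale was 3.98 (SE 0.71, limma, BH-adjusted p = 0.0344), and the ratio of mean FPKM 18.4.

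LOC778087 on chromosome 6, matched to a gene the study names MYB30, rose second most. Genes that the study lists were found in the table by their chromosome and the course of their values over the times, so these identities are inferred and their response is no independent result. MYB30 is known from Arabidopsis as a regulator of the hypersensitive response. Its FPKM was 7.27, 0.291 and 5.04 at t20 and 34.4, 33.2 and 80.9 at t40, while no t0 library exceeded 0.0322. Library 5 was close to t0, and the 3 times did not overlap. On the log2 scale the difference was 3.53 (SE 0.6, limma, BH-adjusted p = 0.0295), and 2.71 without library 5. A second gene matched to MYB30, LOC778184 on chromosome 12, had FPKM of 8.46, 0.497 and 11.3 at t20 and 30.2, 38.0 and 72.3 at t40. Its log2 fold change of 3.0 did not pass adjustment (SE 0.67, limma, BH-adjusted p = 0.0599).

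LOC100780605 (chromosome 11, 4730026 to 4732490), a cytochrome P450 with the synonym CYP71D8, had FPKM of 10.2, 0.258 and 6.25 at t20 and 42.3, 46.1 and 63.1 at t40. It was under 0.14 in each t0 library, so that in this gene too library 5 resembled t0 and libraries 4 and 6 lay between. The times t20 and t40 differed by 3.44 on the log2 scale (SE 0.64, limma, BH-adjusted p = 0.0379). Its neighbour LOC100783298 on the same strand rose by 1.96 (SE 0.34, limma, BH-adjusted p = 0.032). The other 7 of the 10 largest rises carry LOC numbers only and had log2 fold changes from 3.19 to 3.45. One of them, LOC100802410 on chromosome 12, is annotated as a long noncoding RNA: its FPKM was 15.9, 4.17 and 5.72 at t20 and 36.2, 128.0 and 144.0 at t40. Its t20 values overlapped with t0, where it was 14.1, 2.45 and 4.57.

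**Figure D2:**
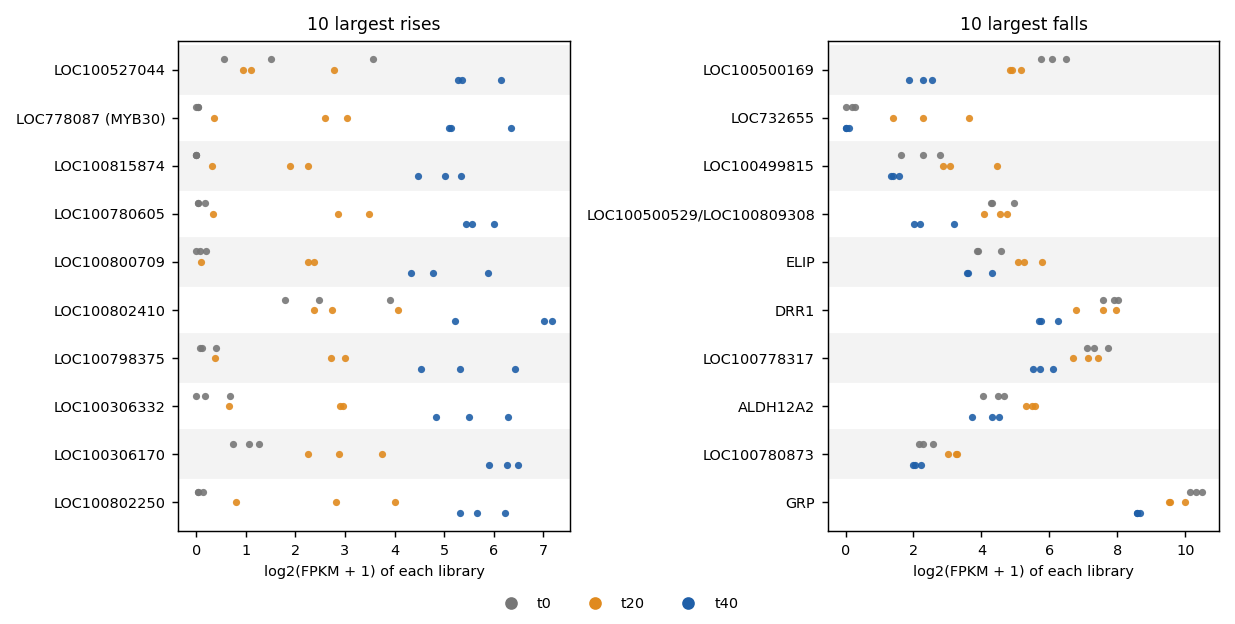
Level of the 10 largest rises (left) and 10 largest falls (right) in each of the 9 libraries, as log2(FPKM + 1) on the horizontal axis, with t0 in grey, t20 in orange and t40 in blue. In each gene the blue points lie apart from the orange ones, and in the rises library 5 is the lowest orange point in 9 of 10 genes, while in LOC100527044 and LOC100802410 orange and grey points overlap.

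Some genes that rose were neighbours on a chromosome. Of 424 rising genes placed on chromosomes, 42 (9.91%) stood next to another one among the genes tested, in 19 groups of 2 to 4. This share is a description and was not compared with the share that genes placed at random would give. On chromosome 12, LOC100802250, LOC100799731 and LOC100802780 lay between 3887822 and 3917081. Their mean FPKM was 7.3, 2.01 and 2.6 at t20 and 54.2, 20.1 and 20.2 at t40, and none had a mean above 0.0499 at t0. On chromosome 16, 4 neighbours between 29547154 and 29624556 rose by 1.36 to 2.21, with mean FPKM at t40 from 3.45 to 12.8. The pair CRK26 and CRK27 on chromosome 11 and the pair GER16 and GER17 on chromosome 10 are members of 1 family each. Reads of near-identical neighbours can be split between copies by the assembly, so the values of such pairs are uncertain.

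Genes of 36 groups were then read against all genes tested. The groups were formed by gene symbol, except the ribosomal RNA loci, which were taken by their annotated type. Only 1179 tested genes fell in any group, 289 of them ribosomal RNA loci. The groups held 39 of the 444 adjusted calls, since most soybean genes carry a LOC number and no other name. In 24 groups the share of members higher by the unadjusted rule was above the 4.51% of all genes, and in 7 groups any member was lower. Groups were chosen with results known, so their counts are descriptions and carry no test.

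**Figure D3:**
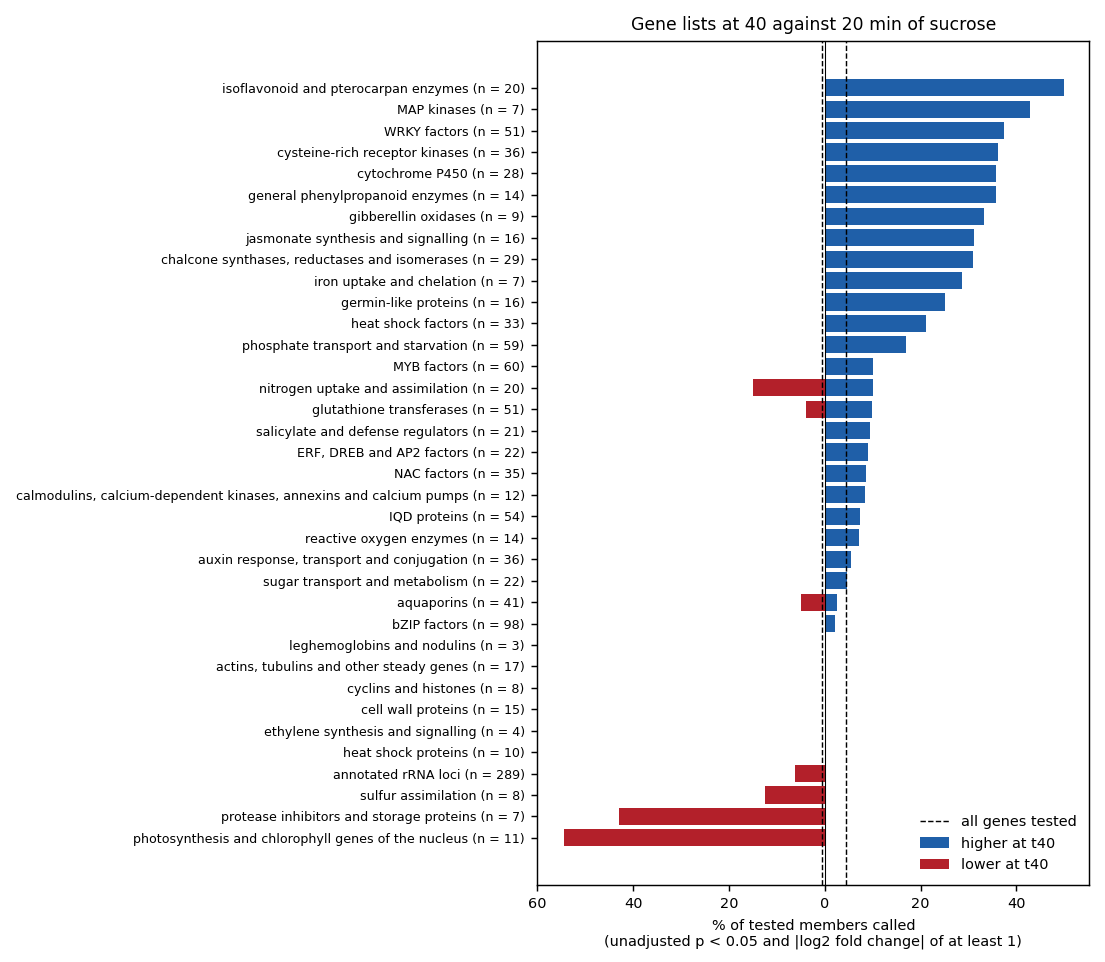
Share of tested members of each gene group that was higher (blue, to the right) or lower (red, to the left) at t40 than at t20 by the unadjusted rule, in percent, with the number of members tested in brackets. Dashed lines mark the shares over all genes, 4.51% and 0.668%. Isoflavonoid enzymes (50%) and WRKY factors (37.3%) are among the longest blue bars, and genes of photosynthesis (54.5%) have the longest red one.

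At many steps from phenylalanine to the pterocarpans some enzyme genes were higher at t40, while other members of the same steps were level. Of 14 general phenylpropanoid enzymes 5 were higher by the unadjusted rule (35.7%, against 4.51% of all genes) and 0 lower. Their median log2 fold change was 0.93. PAL1.2/PAL1.3, adjacent phenylalanine ammonia-lyase genes joined under 1 identifier, had FPKM of 19.9, 6.32 and 25.5 at t20 and 49.1, 100 and 87.9 at t40. The t20 libraries were also on the low side of t0, where the values were 87.1, 41.2 and 15.1 and overlapped with both other times. The difference on the log2 scale was 2.26 (SE 0.63, limma, BH-adjusted p = 0.113). 4CL3, which activates coumarate, had FPKM of 7.36, 1.19 and 8.7 at t20 and 17.2, 17.7 and 25.0 at t40, without overlap. Its log2 fold change was 1.88 (SE 0.47, limma, BH-adjusted p = 0.0869). C4H, between those steps, had a log2 fold change of 0.91 (SE 0.34, limma, BH-adjusted p = 0.211), with mean FPKM of 178.0 at t20 and 315.0 at t40.

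Of 29 chalcone synthases, reductases and isomerases, 9 were higher by the unadjusted rule (31.0%, against 4.51% of all genes) and 0 lower. All 9 were chalcone synthases. CHS1/CHS9 on chromosome 8 had FPKM of 46.3, 8.91 and 89.1 at t20 and 148.0, 172.0 and 303.0 at t40, against 2.78 to 4.92 at t0. All t40 libraries were above all t20 libraries, and library 5 was the nearest to t0. On the log2 scale the difference was 2.51 (SE 0.66, limma, BH-adjusted p = 0.0976). Its neighbours CHS4A, CHS3B/CHS4B, CHS3, CHS3C and CHS5 had log2 fold changes of 2.7, 2.49, 2.45, 2.43 and 2.22. These copies are nearly identical and some are joined under 1 identifier, so the reads may have been shared among them and they are not 6 separate observations. CHS7 and CHS8, on chromosomes 1 and 11, were the most abundant chalcone synthases at each time. Their mean FPKM moved from 503.0 to 745.0 for CHS7 (log2 fold change 0.56, limma, BH-adjusted p = 0.253) and from 225.0 to 403.0 for CHS8 (0.89, BH-adjusted p = 0.166). The reductase CHR1 had FPKM of 519.0, 434.0 and 513.0 at t20 and 825.0, 903.0 and 1210.6 at t40, a log2 difference of 0.99 (SE 0.25, limma, BH-adjusted p = 0.0912). The other reductases ranged from -0.79 in CHR2 to 0.76 in CHR6, and CHR5, with mean FPKM of 378.0 at t20 and 337.0 at t40, had -0.17. The named chalcone isomerases had log2 fold changes from -0.77 to 0.53.

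Among 20 isoflavonoid and pterocarpan enzymes 10 were higher by the unadjusted rule, 2 of them past adjustment, and 0 lower. The median log2 fold change was 1.03, against 0.02 for all genes. HIDH, the dehydratase that completes the isoflavone ring, was one of those that rose and one of the 3 called genes with the highest level at t40. Its FPKM was 182.0, 99.3 and 173.0 at t20 and 306.0, 406.0 and 432.0 at t40, while t0 had 153.0 to 179.0. Levels at t20 thus overlapped with t0, and all t40 libraries were above both. The times t20 and t40 differed by 1.36 on the log2 scale (SE 0.26, limma, BH-adjusted p = 0.0406), 1.08 without library 5.

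The 2 isoflavone synthases, which make the same product and share synonyms in the annotation, differed in their values. IFS2 (chromosome 13, 28182456 to 28184534) had FPKM of 77.9, 18.9 and 94.8 at t20 and 172.0, 135.0 and 220.0 at t40, against 12.3 to 22.9 at t0. Its log2 fold change was 1.71 (SE 0.52, limma, BH-adjusted p = 0.139). IFS1 (chromosome 7, 37488812 to 37491179) had 208.0, 184.0 and 284.0 at t20 and 252.0, 246.0 and 274.0 at t40, which overlap, with a log2 fold change of 0.21 (SE 0.24, limma, BH-adjusted p = 0.668). The difference between both genes was not tested.

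Of the steps after daidzein, IFR, an isoflavone reductase, had FPKM of 23.9, 7.88 and 35.1 at t20 and 89.0, 63.7 and 80.1 at t40, a log2 difference of 1.96 (SE 0.44, limma, BH-adjusted p = 0.0603). CYP93A1, the 6a-hydroxylase of dihydroxypterocarpan, had 10.2, 3.01 and 16.3 at t20 and 30.8, 65.1 and 76.3 at t40. Its t20 values overlapped with the 5.05 to 15 of t0, and its log2 fold change was 2.57 (SE 0.55, limma, BH-adjusted p = 0.0541). G4DT, the prenyltransferase of glyceollin synthesis, had 25.5, 3.67 and 25.9 at t20 and 85.4, 56.9 and 104.0 at t40. The t40 libraries were the highest in each of these genes and library 5 the lowest at t20. The log2 fold change of G4DT was 2.44 (SE 0.58, limma, BH-adjusted p = 0.0729). IFR2 was more abundant than IFR and had mean FPKM of 143.0 at t20 and 168.0 at t40 (log2 fold change 0.23, SE 0.22, limma, BH-adjusted p = 0.604). Without library 5 the unadjusted rule held for 7 of the 20 isoflavonoid enzymes, 7 of the 29 chalcone enzymes and 4 of the 14 general ones. No member of the 3 groups had a log2 fold change of -1 or less.

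**Figure D4:**
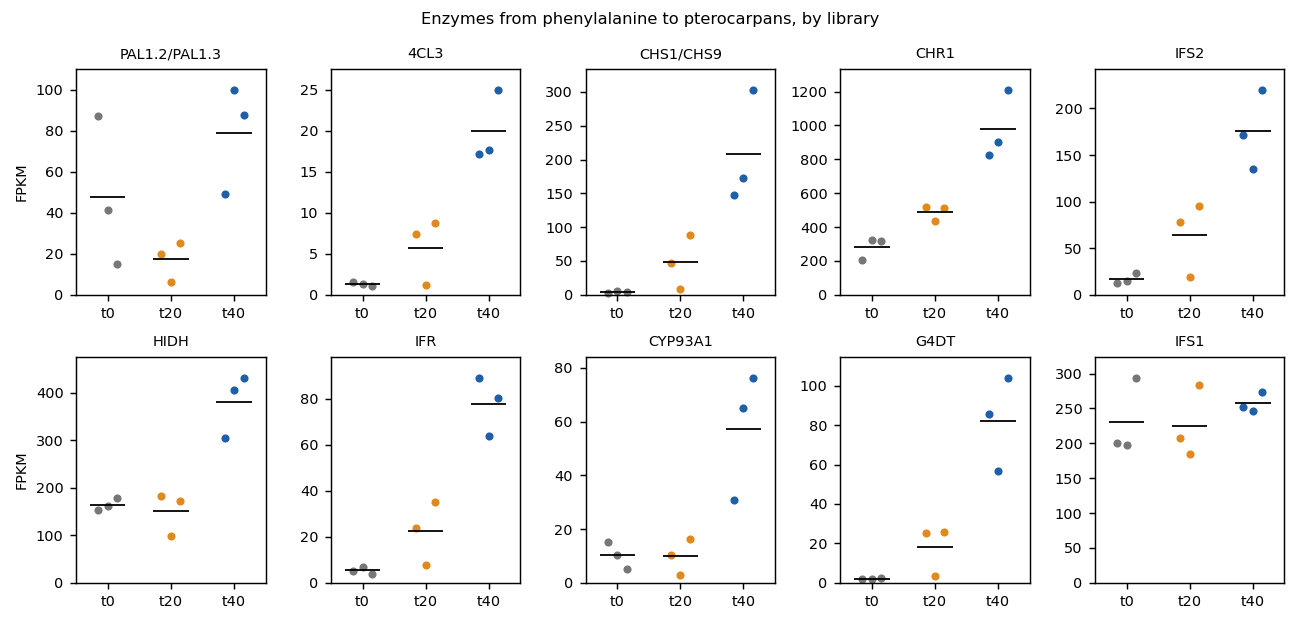
FPKM (vertical axis, starting at 0) of 10 enzymes in the order of the pathway, with IFS1 last, in each library at t0, t20 and t40, and the mean of each time as a bar. CHS1/CHS9, IFS2, IFR and G4DT climb over the 3 times with 1 low t20 library, HIDH and CYP93A1 are at the level of t0 until t40, and IFS1 overlaps between times. Level members of the same steps, such as PAL2.3, CHR5 and IFR2, are not drawn.

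Transcription factors of the WRKY family, many of which act in defense, were higher in 19 of 51 genes by the unadjusted rule. That was 37.3%, against 4.51% of all genes, and 0 were lower. Of the 19 higher genes 2 passed adjustment. The median log2 fold change of the family was 0.66, and without library 5 the unadjusted rule held for 11. WRKY6 had FPKM of 16.3, 5.26 and 15.1 at t20 and 43.0, 50 and 47.8 at t40, a log2 difference of 1.99 (SE 0.4, limma, BH-adjusted p = 0.0452). WRKY60 had a log2 fold change of 1.49 at a mean FPKM of 0.887 at t20 and 4.35 at t40 (SE 0.23, limma, BH-adjusted p = 0.0243). WRKY5, matched by its values alone to what the study calls WRKY SUSIBA2 after a sugar-signalling factor of barley, had 14.2, 1.7 and 12.5 at t20 and 34.6, 47.2 and 51.9 at t40. No t0 library of WRKY5 exceeded 0.579, and the 3 times did not overlap. Its log2 fold change was 2.45 (SE 0.55, limma, BH-adjusted p = 0.0611). Further genes matched to WRKY names of the study carry LOC numbers and are in no group. As with WRKY5, their values were used to find them, so their changes are no independent result. LOC102666898 (WRKY33) had a log2 fold change of 2.23, LOC100807966 (WRKY40) of 1.77 and LOC100815760 (WRKY41) of 1.38, and none passed adjustment in limma.

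Of 60 MYB genes 6 were higher by the unadjusted rule (10.0%, against 4.51% of all genes), 2 past adjustment. MYB29, which is known in soybean as an activator of isoflavone synthesis, had FPKM of 7.13, 3.75 and 4.94 at t20 and 13.2, 16.1 and 20.0 at t40, and t0 was lower still at 1.52 to 2.38. The difference on the log2 scale was 1.49 (SE 0.24, limma, BH-adjusted p = 0.0264). MYB92 rose by 2.12 (SE 0.4, limma, BH-adjusted p = 0.0383), from 40.8, 11.8 and 29.1 at t20 to 85.0, 118.0 and 128.0. Among genes of the study with LOC numbers, LOC102666009 (MYB13) was listed at 0 in all t0 libraries, had 2.14, 0.0894 and 2.69 at t20 and 10.0, 14.3 and 30.3 at t40. It rose by 2.9 (SE 0.47, limma, BH-adjusted p = 0.0264). LOC100777107 (MYB14) had a log2 fold change of 3.03 without passing adjustment (SE 0.71, limma, BH-adjusted p = 0.0677). The values of both were used to match them to the study, so these changes are no independent result. Of 35 NAC genes 3 were higher by the unadjusted rule (8.57%), and NAC6 rose by 2.18 (SE 0.37, limma, BH-adjusted p = 0.0295). Without library 4 the rule held for 12 NAC genes. Of 98 bZIP genes 2 were higher (2.04%), under the share of all genes. Of 22 ERF, DREB and AP2 genes, which bind ethylene-response and dehydration elements, 2 were higher (9.09%), with a median log2 fold change of 0.2.

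Both genes matched to ethylene response factors of the study rose. Their course over the times was used to find them, so these rises are no independent result. LOC100779173 (ERF098-like) had FPKM of 4.25, 0.619 and 1.28 at t20 and 15.1, 17.3 and 17.6 at t40, and at most 0.584 at t0. The t40 libraries were close to each other and well above the rest, with a log2 fold change of 2.71 (SE 0.38, limma, BH-adjusted p = 0.0166). LOC100793366 (ERF 13) was listed at 0 in all t0 libraries and in library 5. It had 1.89 and 1.83 in libraries 4 and 6 and 6.37, 16.6 and 25.9 at t40, a log2 difference of 2.91 (SE 0.49, limma, BH-adjusted p = 0.0289).

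Of 33 heat shock factors 7 were higher by the unadjusted rule (21.2%, against 4.51% of all genes), 5 of them past adjustment. Of 10 heat shock proteins 0 were higher or lower. HSF-06 had FPKM of 2.84, 0.303 and 1.24 at t20 and 8.2, 7.52 and 9.97 at t40 and rose by 2.09 (SE 0.34, limma, BH-adjusted p = 0.0264). HSF-12, at 10.5, 7.32 and 8.49 and then 19.4, 19.0 and 17.8, had a t20 level like that of t0 (8.78 to 10.1) and rose by 1.03 (SE 0.17, limma, BH-adjusted p = 0.0264). The median log2 fold change was 0.61 for the factors and 0.07 for the proteins, and the difference was not tested.

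Among signalling proteins, cysteine-rich receptor kinases are membrane kinases with roles in defense and oxidative signals. By the unadjusted rule 13 of 36 were higher (36.1%, against 4.51% of all genes). Of these 9 rose past adjustment and 0 fell, and 34 of the 36 had a positive log2 fold change. CRK6 had FPKM of 10.9, 3.27 and 5.15 at t20 and 24.0, 16.8 and 26.2 at t40, a log2 difference of 1.76 (SE 0.33, limma, BH-adjusted p = 0.0383). CRK13 was level between t0 (1.88 to 4.5) and t20 (4.01, 3.81 and 2.94) and had 10.9, 11.1 and 13.3 at t40, a log2 difference of 1.48 (SE 0.25, limma, BH-adjusted p = 0.0279). Library 5 did not stand apart in CRK13, and without it the family count was 12, whereas without library 4 it was 22. Of 7 MAP kinases 3 were higher by the unadjusted rule (42.9%, against 4.51% of all genes) and 0 passed adjustment. Of 12 calmodulins, calcium-dependent kinases, annexins and calcium pumps 1 was higher by the unadjusted rule (8.33%, against 4.51% of all genes) and 0 lower. Their median log2 fold change was 0.3, and the calmodulin genes SCAM-1 to SCAM-5 had values from -0.4 to 0.81. The gene that was higher, the plasma membrane calcium pump SCA1, rose by 1.92 (SE 0.34, limma, BH-adjusted p = 0.0339), from 19.9, 6.76 and 15 to 48.7, 42.6 and 63.1. Of 54 IQD proteins, which bind calmodulin, 4 were higher by the unadjusted rule (7.41%), with a median log2 fold change of 0.15.

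Jasmonate genes were higher in 5 of 16 (31.2%, against 4.51% of all genes) and lower in 0 by the unadjusted rule. AOS1 and AOS2 encode allene oxide synthase, the first committed enzyme of jasmonate synthesis. AOS1 had FPKM of 15.7, 7.81 and 17.1 at t20 and 29.1, 40.5 and 74.2 at t40 and rose by 1.71 (SE 0.35, limma, BH-adjusted p = 0.0489). AOS2 had 30.1, 5.87 and 28.2 and then 43.8, 75.7 and 97.3, a log2 fold change of 1.92 (SE 0.54, limma, BH-adjusted p = 0.115). The repressor gene JAZ1 (LOC100778559) had 11.2, 2.87 and 16.0 and then 29.9, 38.3 and 69.4, a log2 fold change of 2.24 (SE 0.5, limma, BH-adjusted p = 0.0618). In all 3 genes the t40 libraries were above all t20 libraries. The lipoxygenases upstream, LOX7, LOX9 and LOX10, had log2 fold changes of 0.16, 0.63 and -0.81, and none met the rule. Of 21 salicylate and defense regulators 2 were higher by the unadjusted rule (9.52%, against 4.51% of all genes), and both rose. PAD4, a lipase-like partner of EDS1 in defense, had FPKM of 13, 6.26 and 10.3 at t20, within 7.14 to 13.4 of t0 but for library 5, and 30.0, 27.2 and 32.4 at t40. Its log2 fold change was 1.55 (SE 0.28, limma, BH-adjusted p = 0.0338), and EDS1-2 had 0.8 (SE 0.35, limma, BH-adjusted p = 0.276).

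A set of genes was reversed in the second 20 min. Genes were said to turn where both steps had an unadjusted p under 0.05 and differed by 1 or more on the log2 scale in opposite directions, and where the highest mean FPKM reached 5, which held for 97 genes. Of these 51 were higher at t20 than at t0 and lower at t40, and 46 were lower at t20 and higher at t40. The t20 libraries enter both steps, so a gene that happens to be high or low in them meets the rule at both, and the counts are a description without a test. At the second step 4 of the 51 and 6 of the 46 had an adjusted p under 0.05.

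Genes of phosphate and iron supply were among those low at t20. Proteins of the SPX family sense phosphate status. SPX3 had FPKM of 2.46, 3.74 and 1.06 at t0, 0.0649, 0.284 and 0.281 at t20 and 2.26, 7.46 and 6.24 at t40. The t20 libraries lay below all others, and t0 overlapped with t40. From t20 to t40 it rose by 2.28 (SE 0.38, limma, BH-adjusted p = 0.0279), after a change from t0 to t20 of -1.42. SPX8 had 14.8, 18.5 and 5.39, then 2.91, 3.96 and 3.84, then 11.2, 24.9 and 19.3, a rise of 2.03 (SE 0.4, limma, BH-adjusted p = 0.0436) after -1.46. SPX1 had 0.628, 0.616 and 1.78 at t20 and 5.32, 13.8 and 10.7 at t40 and rose by 2.41 (SE 0.39, limma, BH-adjusted p = 0.0264). Its t0 values, 4.41, 1.89 and 1.31, overlapped with t20, and its change from t0 to t20 of -0.77 did not meet the rule for turning.

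IRT, an iron transporter of the root surface, had FPKM of 68.2, 43.5 and 19.7 at t0, 6.67, 6.39 and 8.56 at t20 and 21.7, 103.0 and 38.5 at t40. From t20 to t40 it differed by 2.48 on the log2 scale (SE 0.54, limma, BH-adjusted p = 0.0586) after -2.29 from t0 to t20. PLDZ, a phospholipase D that frees phosphate from lipids, had 0.441, 0.522 and 0.709 at t20 and 2.55, 8.72 and 5.86 at t40 (log2 fold change 1.99, SE 0.46; limma, BH-adjusted p = 0.0676). The widest swing was in LOC100527581 on chromosome 7, which has no named function here. It had 772.0, 366.0 and 73.3 at t0, 2.05, 12.3 and 1.93 at t20 and 6.36, 352.0 and 56.4 at t40. Library 7 was within the range of t20, so both times overlapped, and the log2 fold change of 3.43 had a SE of 1.29 (limma, BH-adjusted p = 0.212).

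The genes that returned did so unevenly between libraries. Of the 46, library 8 was the highest t40 library for 39 and library 7 the lowest for 43. At t0 library 3, which had the largest ribosomal RNA share (4.36%), was the lowest for 42. What part the quality of that library had in this was not tested. Without library 8 the second step met an unadjusted p under 0.05 for 26 of the 46, and without library 7 for all 46. The phosphate transporter gene PHT1-1 did not turn and had FPKM of 12, 7.29 and 7.28 at t0, 24.6, 9.2 and 19.5 at t20 and 51.4, 58.8 and 55.4 at t40. It rose by 1.68 (SE 0.32, limma, BH-adjusted p = 0.0405), without overlap between t20 and t40 and with no dip at t20. Of all 59 phosphate genes 10 were higher by the unadjusted rule (16.9%), 4 past adjustment, and 0 lower, and without library 5 the rule held for 7. The PHR genes, regulators of the phosphate response, had log2 fold changes from -0.55 to 0.91. Of 7 iron genes 2 were higher (28.6%, against 4.51% of all genes), IRT and FRD3b. The latter is a citrate exporter known from Arabidopsis to load iron into the xylem.

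The genes that were high at t20 and lower at t40 included genes of photosynthesis. In such bulk tissue fewer cells of a type and less RNA per cell cannot be told apart. CAB3, which encodes a chlorophyll-binding antenna protein, had FPKM of 44.2, 16.8 and 46.1 at t0, 114.0, 56.3 and 335.0 at t20 and 38.5, 21 and 23.0 at t40. All t20 libraries were above all others, library 6 most. The log2 fold change from t20 to t40 was -2.25 (SE 0.6, limma, BH-adjusted p = 0.101). RCAALPHA, a Rubisco activase, had 3.24, 1.65 and 8.44 at t20 and at most 0.354 at t40 and 0.211 at t0. It fell by 1.94 on the log2 scale (SE 0.37, limma, BH-adjusted p = 0.0401), though its mean FPKM of 4.44 at t20 kept it out of the 51. ELIP, a light stress protein of the chloroplast, had 32.6, 36.9 and 54.5 at t20 and 10.9, 11.2 and 18.8 at t40, close to the 13.7 to 23.1 of t0. It fell by 1.54 (SE 0.29, limma, BH-adjusted p = 0.0383).

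Of the 11 nuclear genes of photosynthesis and chlorophyll synthesis tested, 6 were lower by the unadjusted rule and 0 higher, and all 11 had a negative log2 fold change. The background was 0.668%. RBCS2, the small subunit of Rubisco and the most abundant of them on average, had 127.0, 105.0 and 332.0 at t20 and 98.9, 99.5 and 82.5 at t40, and did not meet the rule (log2 fold change -0.81, SE 0.49; limma, BH-adjusted p = 0.409). The summed level of the group was 395, 190 and 203 at t0 and 352, 241 and 942 at t20. Only library 6 was thus above all t0 libraries, and without it 5 of the 11 were lower by the rule. Of the 51 genes that went up and down, library 6 was the highest t20 library for 38 and library 5 the lowest for 44. Without library 6, 37 of the 51 met an unadjusted p under 0.05 at the second step. The amount of any green or shoot tissue in the samples was not measured, and its part in the result was not tested.

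**Figure D5:**
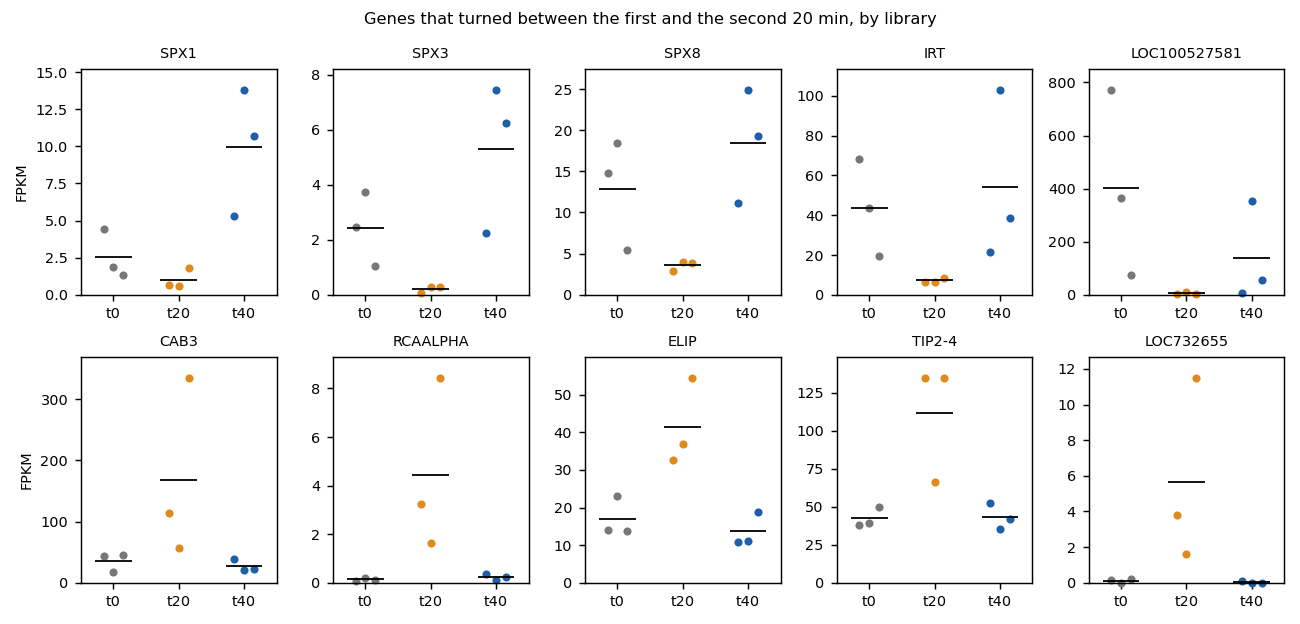
FPKM (vertical axis, starting at 0) in each library at t0, t20 and t40, with the mean of each time as a bar. In the upper row SPX1, SPX3, SPX8, IRT and LOC100527581 had their lowest mean at t20 and spread widely at t40, and in the lower row CAB3, RCAALPHA, ELIP, TIP2-4 and LOC732655 were highest at t20, with values at t40 near those at t0.

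LOC732655 on chromosome 19, without a named function, was detected mainly at t20 and met the rule for turning. Its FPKM was 3.81, 1.63 and 11.5 there, at most 0.202 at t0 and at most 0.076 at t40, where libraries 8 and 9 were listed at 0. It fell by 2.4 on the log2 scale (SE 0.44, limma, BH-adjusted p = 0.0372). Among water channels, which pass water through the plasma membrane (PIP) and vacuolar membrane (TIP), 2 of 41 were lower by the unadjusted rule and 1 higher. The shares were 4.88% lower, against 0.668% of all genes, and 2.44% higher, against 4.51%. TIP2-4 had 135.0, 66.2 and 135.0 at t20 and 52.6, 35.2 and 41.7 at t40, overlapping with t0 (38.2 to 50), with a log2 fold change of -1.3 (SE 0.29, limma, BH-adjusted p = 0.0606). PIP2-10/PIP2-11 overlapped between t20 and t40 (log2 fold change -1.17, SE 0.45; limma, BH-adjusted p = 0.217).

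Further genes fell past adjustment. LOC100500169 (chromosome 1, 51639345 to 51640178), of no named function, fell most: it had FPKM of 89.2, 53.5 and 66.8 at t0, 35.0, 27.7 and 29.0 at t20 and 3.89, 4.81 and 2.67 at t40. The 3 times did not overlap, and each t40 library was under 5. It fell by 2.74 on the log2 scale (SE 0.24, limma, BH-adjusted p = 0.0146) and passed adjustment in 8 of the 9 fits that each left out 1 library. GRP, the most abundant gene that fell, had 754.0, 735.0 and 1022.5 at t20 and 383.0, 381.0 and 404.0 at t40, after 1131.5 to 1429.4 at t0. It fell by 1.09 (SE 0.22, limma, BH-adjusted p = 0.0445). DRR1 had 110.0, 247.0 and 190.0 and then 51.1, 52.5 and 76.0 and fell by 1.54 (SE 0.3, limma, BH-adjusted p = 0.0423). ALDH12A2, an aldehyde dehydrogenase, had 43.9, 46.7 and 38.9 and then 22.1, 12.3 and 18.9, near t0 (15.4 to 24.5), and fell by 1.27 (SE 0.24, limma, BH-adjusted p = 0.0407). It was one of the 51 genes that went up and down.

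Protease inhibitors were lower at t40 in part. Of 7 inhibitors and storage proteins 3 were lower by the unadjusted rule (42.9%, against 0.668% of all genes) and 0 passed adjustment. Without library 8 the rule held for 1 of them. KTI-2, a Kunitz trypsin inhibitor, had FPKM of 538.0, 902.0 and 497.0 at t20 and 295.0, 249.0 and 358.0 at t40, without overlap (log2 fold change -1.06, SE 0.28; limma, BH-adjusted p = 0.104). KTI-3 and BBI-1 had -1.04 and -1.09. Nitrogen genes were split, with 2 of 20 higher and 3 lower by the unadjusted rule. AMT2.1, an ammonium transporter, had 10.2, 1.61 and 4.25 at t20 and 18.3, 18.7 and 24.7 at t40 (log2 fold change 2.0, SE 0.45; limma, BH-adjusted p = 0.0609). AS2, an asparagine synthetase, had 173.0, 59.4 and 145.0 and then 44.3, 40.5 and 41.7 (log2 fold change -1.42, SE 0.5; limma, BH-adjusted p = 0.19).

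Several genes matched to names of the study did not pass either rule between t20 and t40. Their values were used in the match, so this is no independent result. Phosphoglycerate mutase 1 (LOC100784422), of glycolysis, had FPKM of 121.0, 56.0 and 96.1 at t20 and 91.8, 58.3 and 67.5 at t40, far above the 7.39 to 13.3 of t0. Both later times overlapped, with a log2 fold change of -0.28 (SE 0.31, limma, BH-adjusted p = 0.67). Thermospermine synthase ACAULIS5 (LOC100784972) had 54.8, 21.2 and 51.1 and then 66.6, 36.9 and 49.8 (log2 fold change 0.34, SE 0.39; limma, BH-adjusted p = 0.68). Auxin response factor 9 (LOC100803911) had a log2 fold change of 0.23 and aminopeptidase M1 (LOC100811437) of -0.18. The genes matched to RESPONSE TO LOW SULFUR 3, LOC100820369 and LOC100813653, had -1.0 and -1.11 (limma, BH-adjusted p = 0.314 and 0.332), with t20 and t40 overlapping in both. A p that misses the threshold does not show that these levels were the same. The dicarboxylate carrier 14-1-1 was among those still climbing, at 22.4, 5.44 and 23.9 and then 30.5, 63.6 and 70.2 (log2 fold change 1.76, SE 0.5; limma, BH-adjusted p = 0.119).

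The remaining groups are given by their counts, beside the 4.51% higher and 0.668% lower of all genes. Of 9 gibberellin oxidases 3 were higher by the unadjusted rule (33.3%) and 0 passed adjustment, with a median log2 fold change of -0.11. The 3 were gibberellin 2-oxidases, which inactivate gibberellin: GA2OX1, GA2OX6 and GA2OX7, at 1.51, 1.83 and 1.2. The 2-oxidases GA2OX5 and GA2OX8 had 0.26 and -0.11. Of 16 germin-like proteins 4 were higher and 2 rose past adjustment, the neighbours GER16 and GER17. Of 51 glutathione transferases 5 were higher (9.8%) and 2 lower (3.92%). Of 28 cytochromes P450 10 were higher (35.7%), among them CYP93A1, IFS2 and AOS2 described above. Of 36 auxin genes 2 were higher (5.56%, near the share of all genes), the influx carriers LAX2 and LAX13, the latter past adjustment. The median log2 fold change of the auxin genes was -0.03. Of 22 sugar transport and metabolism genes 1 was higher (4.55%, near the share of all genes) and 0 lower. The higher gene was SWEET41, at 0.0, 0.0982 and 0.0 at t20 and 0.262, 5.86 and 3.01 at t40 (limma, BH-adjusted p = 0.265). Of 14 reactive oxygen enzymes 1 was higher (7.14%), and of 8 sulfur assimilation genes 1 was lower (12.5%). Of 289 annotated ribosomal RNA loci 18 were lower (6.23%) and 0 higher, with a median log2 fold change of -0.94. Leaving out 1 library gave 0 to 182 lower loci. Cell wall proteins, cyclins and histones, ethylene genes, nodule genes and steady genes gave no call by either rule.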

How the data were processed

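Root tip RNA of 9 plants was sequenced as stranded mRNA libraries. Per the study's methods and the submitters' processing notes, the authors demultiplexed reads with bcl2fastq 2.20, trimmed them with Trimmomatic 0.32, aligned with HISAT2 to Glycine_max_v4.0, assembled transcripts with StringTie and exported FPKM with Ballgown. The deposited values are FPKM per transcript, normalized by the authors for length and library. A further 9 value columns (coverage per transcript) were not used, and no read counts were derived from them, so no count test was run.

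FPKM of 119600 transcripts was summed over 62609 gene identifiers, of which 876 join more than 1 annotated gene. Genes that reached FPKM 1 in 3 or more libraries were fitted as log2(FPKM + 1) over all 9 libraries with limma 3.58.1 (lmFit, eBayes with variance trend; R 4.3.3), two-sided, with Benjamini-Hochberg adjustment over 32763 genes. Column names give the time but not which labelled replicate, and each library was 1 plant. On simulated data 62 of 100 genes changed by 1.5 on the log2 scale and 97 of 100 changed by 3 were recovered, with 5 unchanged genes called. The simulated noise was independent between genes and libraries, and only genes above a minimum level were changed. Shifts of a whole library and changes of low genes were thus not covered, and these numbers need not hold for the real libraries.

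Members and lists were chosen with earlier results of these data known, and the symbol patterns of the lists were revised after the symbols in the table had been seen. Lists by protein motif were not run, since no protein sequences were used here. Genes named were the 10 largest rises and falls past adjustment without overlap and with a mean FPKM of at least 5, the 5 largest reversals each way, up to 3 members of each list, 20 genes listed by the study and the 3 called genes with the highest level at t40. Other list members are named for their role and were chosen after their values were seen. The genes listed by the study were located by chromosome, where it was given, and by agreement of their values with the study's table, and no value of that table is reported. Alternatives were other pseudocounts, filters, scalings, weights, fold thresholds and samples, and each library left out in turn.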

Additional observations from a re-analysis of the deposited data

How the results depend on the processing

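The number of genes past the adjusted p depended on most choices, whereas more genes rose than fell in each alternative except without library 8, where the counts were 1 and 1, and without library 9, where both were 0. Rises and falls numbered 16 and 1 with a pseudocount of 0.1, 241 and 9 with 0.5, 107 and 2 without a filter, 20 and 1 at a mean FPKM of at least 5, 140 and 5 in a fit of the t20 and t40 libraries alone, 1720 and 654 with library weights, and 235 and 8 at a fold threshold of 1.5. Single transcripts gave 38 rises and 21 falls, and quantile normalization 401 and 39. Leaving out 1 library gave 0 to 1019 rises and 0 to 288 falls. Without library 9 the smallest adjusted p from limma was 0.0721. By the unadjusted rule, leaving out 1 library gave 1136 to 2103 genes higher and 132 to 628 lower. A mean FPKM of at least 5 gave 875 higher and 141 lower, single transcripts 2634 and 1139, and a fold threshold of 1.5 gave 515 and 47. Lower genes numbered 444 with a pseudocount of 0.1, 339 with quantile normalization and 669 with library weights. Of all called genes 95.7% rose, against 72.5% with library weights, 78.0% without library 4, 86.7% without library 5 and 64.4% over single transcripts. The cause was not tested.

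Of 141 named genes 45 were past the adjusted p, and none of these passed it in every fit that left out a library. Of the 45, 1 passed without library 8, 9 without library 6, 18 without library 5 and 43 without library 4. No paired analysis was possible because the columns carry no replicate number that ties them to the labels. Depth was not derived from the table, so no counting interval or floor is given.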

Other observations

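Genes often used as a steady reference were slightly lower at t40. Of 17 actin, tubulin, elongation factor and similar genes, 4 had a positive log2 fold change from t20 to t40 and the median was -0.35, although 0 met the unadjusted rule. GAPDH, the glycolytic dehydrogenase, had FPKM of 221.0, 322.0 and 268.0 at t20 and 179.0, 161.0 and 183.0 at t40 (log2 fold change -0.62, SE 0.21, limma, BH-adjusted p = 0.173). Over all genes the median log2 fold change was 0.06 for 13315 genes with a mean FPKM under 5 and -0.33 for 1134 genes at 100 or more. In the latter 29 genes were higher and 42 lower by the unadjusted rule. FPKM is relative to the sum of a library, and which genes changed per cell cannot be told from it.

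Of 14 small nuclear RNA loci, parts of the splicing machinery, 7 were higher at t40 by the unadjusted rule, 3 of them past adjustment, and 0 lower, against 4.51% higher of all genes. Their summed FPKM was 18.9, 33.0 and 21.8 at t20 and 37.4, 57.7 and 51.2 at t40. Small nucleolar RNA loci had 12 of 170 higher and 2 lower. The median length was 196.0 bases for the former and 92.0 for the latter. The libraries were made from mRNA, and what part of these RNAs was carried into them was not tested.

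The called gene with the highest level at t40 was MSTRG.20341, an assembled locus without an annotated gene on chromosome 10, 45771690 to 45772053. Its mean FPKM at t40 was 833.0, against 389.0 for GRP and 381.0 for HIDH, the next by level. Its FPKM was 367.0, 210.0 and 238.0 at t20 and 789.0, 1079.4 and 629.0 at t40 (log2 fold change 1.62, SE 0.33, limma, BH-adjusted p = 0.0481).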
